A study of Mus musculus with 8 samples.

Results

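Chaperones are the proteins that fold other proteins, hold them in solution and refold them after stress. The genes described here were 40 chaperones, co-chaperones and regulators of their expression, listed by symbol and placed in 4 compartments: 16 of the cytosolic heat shock system, 7 subunits of the cytosolic chaperonin CCT, 13 of the endoplasmic reticulum (ER) and 4 of mitochondria. They were found among the 23183 genes of the count tables, and a member was kept where at least 10 counts stood in 4 or more of the 8 libraries. 39 of the 40 members met that rule. The same 39 were among the 12239 genes tested in the whole transcriptome, and Hspb1 was the member that failed the rule.

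The libraries were made from group 2 innate lymphoid cells (ILC2s), lymphocytes that lack antigen receptors and release type 2 cytokines, taken from the lungs of C57BL/6 mice 6 to 10 weeks old and kept in culture. All mice had received IL-33, all cultures held IL-2, IL-7 and IL-33, and no gene was deleted in either group. 4 libraries came from cells given the vehicle, 0.1% DMSO, and 4 from cells given 5 µM Yoda1, a small molecule that opens the mechanosensitive cation channel PIEZO1, both for 3 h. Poly(A) RNA was sequenced in bulk, so that fewer cells of a type and less RNA per cell cannot be told apart, and no source used here says whether the 4 samples of a group were separate mice or cultures.

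Cytosolic HSP70 proteins bind exposed hydrophobic stretches of a client, J-domain proteins bring the client and start ATP hydrolysis, and nucleotide exchange factors release it. HSP90 acts on clients at a later stage, and the ring-shaped CCT complex folds actin and tubulin. Heat and misfolded cytosolic protein free the transcription factor HSF1 to switch on the inducible genes of this system, whereas unfolded protein in the ER acts through separate sensors that include IRE1, whose target is the Xbp1 mRNA, and ATF6. Lymphocytes that secrete large amounts of cytokine fold it in the ER, where BiP, GRP94, lectin chaperones and disulfide isomerases reside.

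Yoda1 was followed by a higher level of the inducible HSP70 mRNAs Hspa1a and Hspa1b, both of which stood at low levels, and by no other call among the 39 tested members. edgeR called 2 of the 39 tested members at an adjusted p under 0.05, or 5.13%, against 10.9% of all genes tested in either direction. Both were higher with Yoda1, against 6.04% of all genes called higher, and none was lower, against 4.84% of all genes called lower. Without adjustment 6 members, or 15.4%, had p under 0.05, against 25.3% of all genes. They were Hspa1a, Hspa1b, Hspa4, Dnaja2, Stip1 and Hspa5, all with the higher mean in the Yoda1 libraries. DESeq2 and limma-voom, run on the same counts, called Hspa1a and Hspa1b and no other member.

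**Figure D1:**
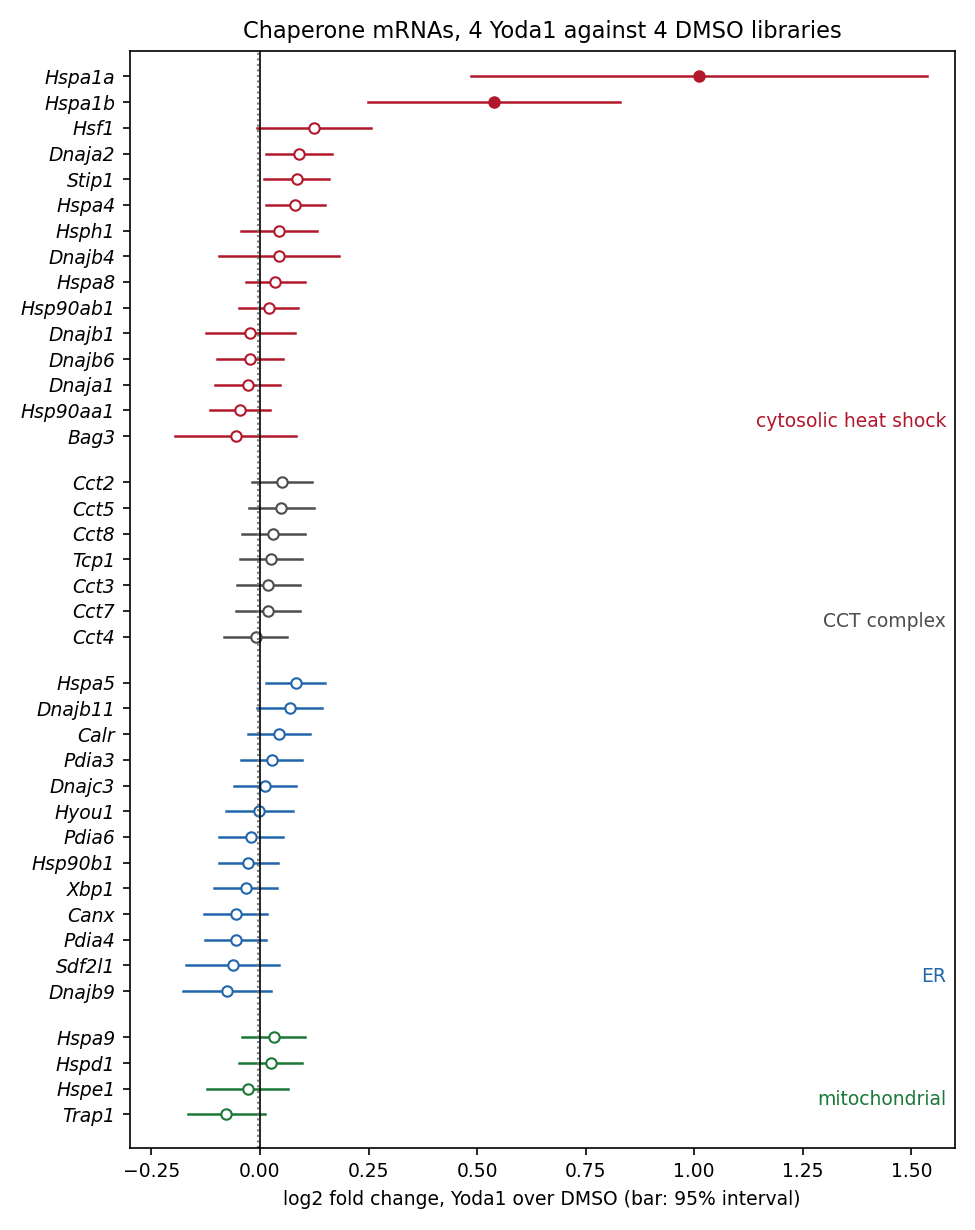
Log2 fold change of each of the 39 tested members (x axis, Yoda1 over DMSO, 4 libraries each) with its 95% interval from edgeR, grouped and coloured by compartment. Filled points have an adjusted p under 0.05. The dotted line marks the median of all 12239 genes, at -0.01. Hspa1a at 1.01 and Hspa1b at 0.54 stand to the right, and 36 members lie within 0.1 of 0.

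Hspa1a and Hspa1b encode nearly identical stress-inducible HSP70 proteins. In the mm10 annotation both are single-exon genes on the minus strand of chromosome 17, Hspa1a at chr17:34969190-34972156 and Hspa1b at chr17:34956436-34959238. The 250 bases before their RefSeq start sites (GRCm38.p6, minus strand, chr17:34972157-34972406 and chr17:34959239-34959488) are shown because these were the only members called. The capitals mark GAANNTTC, a pair of facing units of the heat shock element to which HSF1 binds.
Hspa1a: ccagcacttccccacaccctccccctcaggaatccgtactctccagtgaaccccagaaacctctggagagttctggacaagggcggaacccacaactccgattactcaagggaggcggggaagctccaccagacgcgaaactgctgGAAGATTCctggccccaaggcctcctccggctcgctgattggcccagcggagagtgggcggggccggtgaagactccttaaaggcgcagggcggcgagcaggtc
Hspa1b: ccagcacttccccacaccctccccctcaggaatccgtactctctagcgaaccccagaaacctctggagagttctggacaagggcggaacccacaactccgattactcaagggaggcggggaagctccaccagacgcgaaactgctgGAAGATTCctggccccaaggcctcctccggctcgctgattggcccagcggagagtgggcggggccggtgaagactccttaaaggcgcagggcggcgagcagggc
The sequences were identical at 247 of the 250 aligned bases, or 98.8%, and each held 1 match, at 104 to 97 bases before the start.

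Hspa1a was read at 13, 18, 12 and 14 counts in DMSO replicates 1 to 4 and at 27, 34, 18 and 33 counts in Yoda1 replicates 1 to 4. Scaled by edgeR's TMM factors to counts per 1000000 counts of the library (CPM), that was 0.813, 0.985, 0.767 and 1.03 CPM with DMSO and 2.18, 2.07, 1.35 and 1.70 CPM with Yoda1. Every Yoda1 library lay above every DMSO library, with Yoda1 replicate 3 the closest to the controls. The means were 0.900 ± 0.130 CPM (SD, n = 4) and 1.82 ± 0.377 CPM (SD, n = 4), a log2 fold change of 1.01 (SE 0.257, edgeR adjusted p = 0.00906) and a fold of 2.02 with a 95% interval of 1.40 to 2.90.

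Hspa1b was read at 53, 66, 50 and 50 counts with DMSO and at 63, 87, 73 and 85 counts with Yoda1. Its levels were 3.32, 3.61, 3.19 and 3.69 CPM in the DMSO libraries and 5.08, 5.29, 5.47 and 4.37 CPM in the Yoda1 libraries. The groups did not overlap, and here Yoda1 replicate 4 was the lowest of the treated libraries. The log2 fold change was 0.54 (SE 0.142, edgeR adjusted p = 0.0119), a fold of 1.45 with a 95% interval of 1.19 to 1.78.

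Because the pair share most of their sequence, a read cannot always be given to one of them. Of all 50-base stretches in the exons of Hspa1a, 58.8% also occur in Hspa1b, and 62.3% of those of Hspa1b occur in Hspa1a. The exon of Hspa1a also overlaps Gm20481 on the opposite strand. How reads that match several places were counted is not given in the sources used here, so the split between the pair is uncertain. Their sum does not depend on that split, but it too depends on whether such reads were kept.

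The sum of Hspa1a and Hspa1b stood at 4.13, 4.60, 3.96 and 4.73 CPM with DMSO and at 7.26, 7.36, 6.82 and 6.07 CPM with Yoda1. Entered in the fit as 1 gene, it gave a log2 fold change of 0.65 (SE 0.125, edgeR adjusted p = 0.000599), a fold of 1.57 with a 95% interval of 1.32 to 1.87. The share of Hspa1a within the sum ranged from 19.4% to 21.9% with DMSO and from 19.8% to 30.0% with Yoda1, ranges that overlap.

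Hspa8, which encodes the constitutive cytosolic HSP70 (HSC70), stood at 3603, 3629, 3460 and 3533 CPM with DMSO and at 3655, 3565, 3710 and 3642 CPM with Yoda1. The groups overlapped, and the log2 fold change was 0.03 (SE 0.033, edgeR adjusted p = 0.560), with an interval of 0.977 to 1.07 for the fold. Counted within each library, Hspa1a plus Hspa1b made 1.15, 1.27, 1.15 and 1.34 counts per 1000 Hspa8 counts with DMSO and 1.99, 2.06, 1.84 and 1.67 with Yoda1, a ratio that depends on no scaling between libraries. The inducible genes were thus a small pool: per kilobase of annotated transcript, over all 8 libraries, the levels were 0.459 CPM for Hspa1a, 1.52 CPM for Hspa1b and 1504 CPM for Hspa8.

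**Figure D2:**
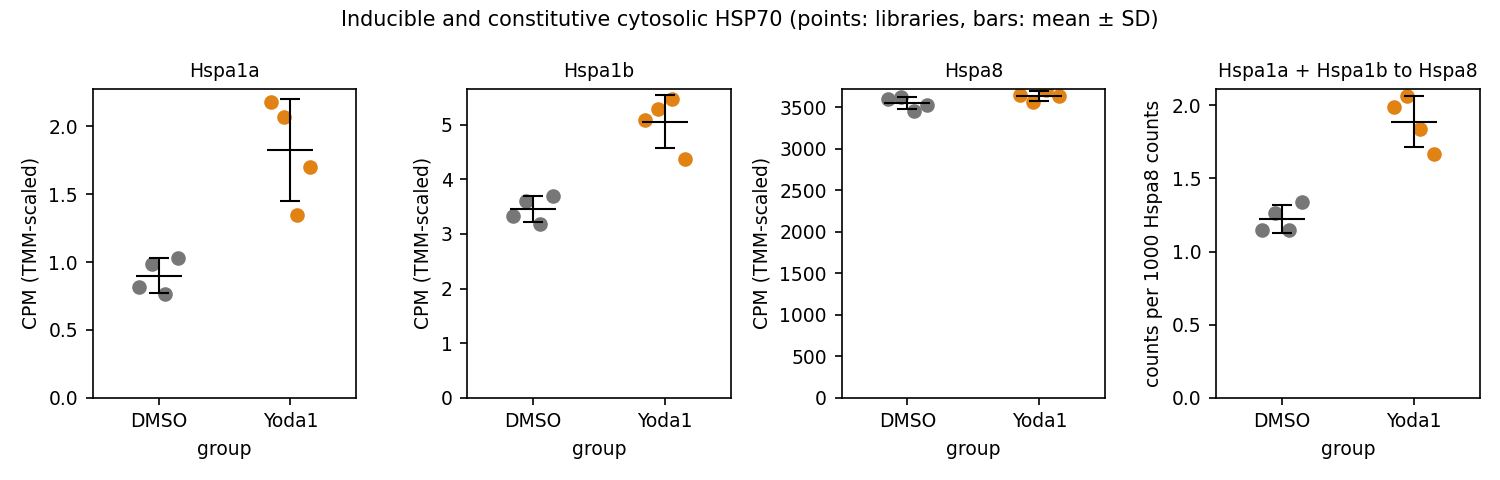
Levels of Hspa1a, Hspa1b and Hspa8 (y axis, TMM-scaled CPM) and the counts of Hspa1a plus Hspa1b per 1000 Hspa8 counts in each of 4 DMSO and 4 Yoda1 libraries (points), with the mean and SD of each group (bars). The axes start at 0. All Yoda1 points of Hspa1a, Hspa1b and the ratio lie above all DMSO points, while those of Hspa8 overlap, from 3460 to 3629 CPM with DMSO and from 3565 to 3710 CPM with Yoda1.

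The other cytosolic members did not pass the threshold. Among 15 tested members the median log2 fold change was 0.04, against -0.01 for all genes, and 10 of the 15 were above 0, or 66.7%, against 48.4% of all genes. With upper-quartile factors it was 9 of the 15 against 38.0% of all genes. 2 of the 15, or 13.3%, were called, a share near the 10.9% of all genes.

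Hsf1, the gene of the transcription factor itself, stood at 36.1, 29.8, 33.0 and 29.5 CPM with DMSO and at 32.5, 34.7, 35.2 and 37.0 CPM with Yoda1. The groups overlapped, with DMSO replicates 1 and 3 within the range of the treated libraries, and the log2 fold change was 0.12 (SE 0.064, edgeR adjusted p = 0.228). HSF1 is activated as a protein, so its mRNA level is no measure of that activity.

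3 genes of the cytosolic HSP70 and HSP90 cycle had Yoda1 levels above every DMSO level without passing the threshold. With the called Hspa1a and Hspa1b, 5 of the 15 tested cytosolic members, or 33.3%, had separated groups, all of them higher. Among all 12239 genes tested, called or not, 1033 had groups separated in that direction, and 15.5% in either direction. Hspa4, a nucleotide exchange factor of the HSP110 family, stood at 505, 499, 487 and 496 CPM with DMSO and at 524, 525, 521 and 530 CPM with Yoda1. Its log2 fold change was 0.08 (SE 0.033, edgeR adjusted p = 0.117), and the fold had an interval of 1.01 to 1.11.

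Dnaja2, a J-domain partner of HSC70, stood at 236, 229.9, 213 and 223 CPM with DMSO and at 243, 238, 243 and 237 CPM with Yoda1. The groups were separated by less than 1 CPM, between DMSO replicate 1 and Yoda1 replicate 4. The log2 fold change was 0.09 (edgeR adjusted p = 0.121), and the gene was called without DMSO replicate 1, at an adjusted p of 0.0405. Stip1, the HOP adaptor that links HSP70 to HSP90, stood between 163 and 168 CPM with DMSO and between 168 and 181 CPM with Yoda1, with a log2 fold change of 0.08 at an edgeR adjusted p of 0.145. Its highest DMSO library and its lowest Yoda1 library differed by less than 1 CPM too.

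The HSP90 genes had small differences, of opposite sign with TMM factors but of the same sign with upper-quartile factors or library size only. Hsp90ab1, the constitutive cytosolic HSP90, had a mean of 2909 ± 88.2 CPM with DMSO and 2950 ± 20.3 CPM with Yoda1 (SD, n = 4 each), and Hsp90aa1, its inducible relative, had 806 ± 18.9 and 781 ± 13.1 CPM. The log2 fold changes were 0.02 and -0.05, with edgeR adjusted p of 0.773 and 0.429. The count ratio of Hsp90aa1 to Hsp90ab1 ranged from 0.269 to 0.283 with DMSO and from 0.260 to 0.272 with Yoda1, and these ranges overlap.

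Hsph1, Dnajb1 and Bag3, which HSF1 is known to drive in heat-shocked cells, had overlapping groups. They are not a full list of such genes, and Hspa4, Dnaja2 and Stip1, described above, had groups that did not overlap. Hsph1 (HSP110) averaged 86.2 CPM with DMSO and 88.8 CPM with Yoda1, Dnajb1 (HSP40) 54.9 and 54.0 CPM, and Bag3, a nucleotide exchange factor that steers clients to autophagy, 33.7 and 32.4 CPM. Their log2 fold changes were 0.04, -0.02 and -0.06, and the edgeR adjusted p lay between 0.580 and 0.837. The upper bounds of the 95% intervals, 1.1 for Hsph1 and 1.06 for both Dnajb1 and Bag3, lay below the lower bound of Hspa1b, 1.19. Hspa1b was chosen for this comparison because it was called.

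The J-domain proteins Dnaja1, Dnajb4 and Dnajb6 gave log2 fold changes of -0.03, 0.04 and -0.02, all with overlapping groups. Hspb1, the small heat shock protein HSP25, was read at 8, 10, 4 and 4 counts with DMSO and at 2, 8, 3 and 5 counts with Yoda1. At this depth no difference in Hspb1 was detectable, and since 60.4% of its 50-base stretches occur in other annotated genes, chiefly a pseudogene, even these few counts are uncertain in origin.

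CCT folds actin and tubulin, and its 7 listed subunits, Tcp1, Cct2, Cct3, Cct4, Cct5, Cct7 and Cct8, had group means between 304 and 459 CPM. Log2 fold changes ran from -0.01 (Cct4) to 0.05 (Cct2), with a median of 0.03 (-0.01 with upper-quartile factors), and 6 of 7 were above 0 (3 of 7 with upper-quartile factors, when 38.0% of all genes were). edgeR called none of them, none had an unadjusted p under 0.05, DESeq2 and limma-voom called none, and every subunit had overlapping groups.

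Cct2 came closest to separation, at 438, 439, 439 and 457 CPM with DMSO and 466, 444, 467 and 460 CPM with Yoda1 (edgeR adjusted p = 0.380). DMSO replicate 4 lay among the treated libraries. The 95% intervals for the fold reached from 0.945 at the lowest bound (Cct4) to 1.09 at the highest (Cct2 and Cct5). Tcp1 shares 22.2% of its 50-base stretches with other genes, mostly Acat3, whose exons overlap it on the opposite strand.

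The ER members gave no call in either direction by edgeR, DESeq2 or limma-voom, and 1 of the 13, Hspa5, had an unadjusted p under 0.05. Their median log2 fold change was -0.02, and 5 of the 13 were above 0, or 38.5%, against 48.4% of all genes. With upper-quartile factors the median was -0.05 and 3 of the 13, or 23.1%, were above 0, against 38.0% of all genes, and with library size only the median was -0.04. The largest difference upward was that of Hspa5, at 0.08, and the largest downward that of Dnajb9, at -0.08.

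Hspa5 encodes BiP, the HSP70 of the ER and the classical reporter of the unfolded protein response, and Hsp90b1 encodes GRP94, the HSP90 of the ER. Hspa5 lies at chr2:34771970-34777547 on the plus strand with 9 exons, and Hsp90b1 at chr10:86690209-86705509 on the minus strand with 18 exons. The 250 bases before their RefSeq starts (GRCm38.p6, chr2:34771840-34772089, plus strand, and chr10:86705445-86705694, minus strand) are shown. The genes were chosen because they carry the same kind of element and their log2 fold changes differed in sign, although neither gene was called. The capitals mark CCAAT and CCACG separated by 9 bases, the ER stress element, on either strand.
Hspa5: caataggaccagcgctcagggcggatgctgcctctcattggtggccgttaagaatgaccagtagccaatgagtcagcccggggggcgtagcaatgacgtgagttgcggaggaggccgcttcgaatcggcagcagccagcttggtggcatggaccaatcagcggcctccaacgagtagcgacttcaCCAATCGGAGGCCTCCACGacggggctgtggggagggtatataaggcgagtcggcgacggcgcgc
Hsp90b1: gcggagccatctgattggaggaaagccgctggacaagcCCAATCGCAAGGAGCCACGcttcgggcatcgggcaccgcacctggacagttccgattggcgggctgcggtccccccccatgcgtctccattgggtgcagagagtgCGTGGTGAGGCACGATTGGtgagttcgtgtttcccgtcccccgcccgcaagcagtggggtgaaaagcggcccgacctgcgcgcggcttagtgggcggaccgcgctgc
Only exact matches were counted, so near matches are left out. Hspa5 held 1 exact match, at 65 to 47 bases before the start. Hsp90b1 held 2, at 212 to 194 and at 107 to 89 bases before the start, the latter on the other strand.

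Hspa5 stood at 1037, 1055, 1031 and 1067 CPM with DMSO and at 1105, 1077, 1136 and 1117 CPM with Yoda1. All 4 treated libraries lay above all 4 controls, yet the difference was small, with a log2 fold change of 0.08 (SE 0.034, edgeR adjusted p = 0.116) and an interval of 1.01 to 1.11 for the fold. Hsp90b1 stood at 1081, 1112, 1065 and 1104 CPM with DMSO and at 1074, 1050.0, 1088 and 1072 CPM with Yoda1. Here the groups overlapped and the treated mean was the lower, with a log2 fold change of -0.03 (SE 0.033, edgeR adjusted p = 0.678).

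As a ratio of counts within each library, not per length, the pair gave groups that did not overlap. There were 0.959, 0.948, 0.969 and 0.966 Hspa5 counts per Hsp90b1 count in DMSO replicates 1 to 4, and 1.03, 1.03, 1.04 and 1.04 in Yoda1 replicates 1 to 4. The means were 0.960 ± 0.00913 and 1.04 ± 0.00928 (SD, n = 4 each), so every DMSO library had fewer Hspa5 than Hsp90b1 counts and every Yoda1 library more. This ratio was chosen after the values of both genes were seen and is given as a description, without a test. Hspa5 per Hspa8 count also separated the groups, at 0.288 to 0.302 with DMSO against 0.302 to 0.307 with Yoda1, but by less than the last digit given.

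**Figure D3:**
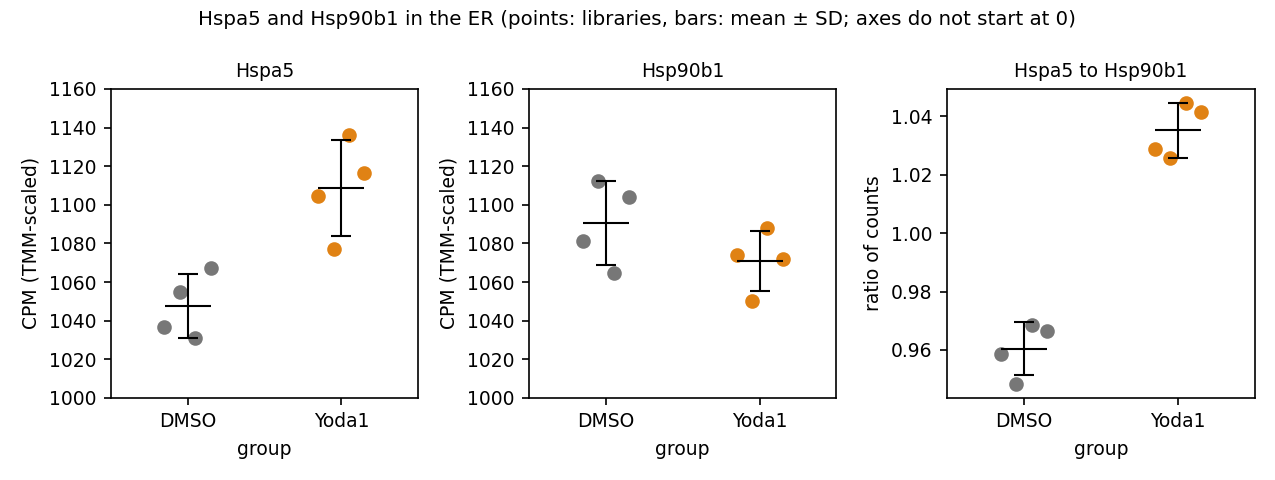
Levels of Hspa5 and Hsp90b1 (y axis, TMM-scaled CPM) and the ratio of their counts in each of 4 DMSO and 4 Yoda1 libraries (points), with the mean and SD of each group (bars). The y axes do not start at 0. Hspa5 was higher in all 4 Yoda1 libraries and Hsp90b1 overlapped, and the ratio lay between 0.948 and 0.969 with DMSO and between 1.03 and 1.04 with Yoda1.

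Xbp1, Dnajb9, Sdf2l1 and Hyou1, ER members known to be induced by unfolded protein, also had overlapping groups. They are not a full list of such genes, and Pdia4, described below, had groups that did not overlap. Xbp1, the transcription factor whose mRNA IRE1 splices, had 267 ± 5.19 and 261 ± 8.01 CPM (SD, n = 4 each), and the counts do not tell its spliced from its unspliced form. Dnajb9 (ERdj4) had 58.1 and 55.0 CPM, Sdf2l1, a co-factor of BiP, 75.0 and 72.0 CPM, and Hyou1, the large HSP70-like exchange factor of BiP, 278 and 277 CPM. Over these genes edgeR adjusted p ran from 0.358 to 0.989. Dnajb11 (ERdj3), a J-domain partner of BiP, had 171 and 179 CPM (log2 fold change 0.07, edgeR adjusted p = 0.243), and Dnajc3 (p58IPK) had 197 and 199 CPM.

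Calreticulin and calnexin, lectin chaperones of glycoproteins, had differences of opposite sign, both with overlapping groups. Calr averaged 891 CPM with DMSO and 919 CPM with Yoda1 (log2 fold change 0.04, edgeR adjusted p = 0.471), and Canx 660 and 635 CPM (-0.06, edgeR adjusted p = 0.343). Of the disulfide isomerases, Pdia3, Pdia4 and Pdia6 gave log2 fold changes of 0.03, -0.06 and -0.02. Pdia4 was the ER member whose Yoda1 levels lay below all DMSO levels, at 203, 204, 203 and 208 CPM with DMSO and 196, 197, 201 and 194 CPM with Yoda1 (edgeR adjusted p = 0.325).

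The 4 mitochondrial members were measured at a median log2 fold change of 0.00. Hspd1 (HSP60) and Hspe1 (HSP10) form the mitochondrial chaperonin and its lid, and Hspa9 (mortalin) is the HSP70 of the matrix. Hspd1 averaged 357 and 363 CPM, Hspe1 135 and 132 CPM, and Hspa9 387 and 396 CPM with DMSO and Yoda1, all with overlapping groups and edgeR adjusted p of 0.636 or more. Hspd1 and Hspe1 lie head to head on chromosome 1, their exons overlap on opposite strands, and their promoter windows shared 285 of 300 bases. Their count ratio, Hspe1 to Hspd1, ranged from 0.363 to 0.398 with DMSO and from 0.333 to 0.381 with Yoda1.

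Trap1, the mitochondrial HSP90, had the lowest log2 fold change of all 39 members, -0.08 (SE 0.044, edgeR adjusted p = 0.272). It stood at 67.2, 64.6, 63.4 and 64.6 CPM with DMSO and at 61.1, 61.6, 61.0 and 62.3 CPM with Yoda1. Its groups did not overlap, and the interval of the fold, 0.891 to 1.01, included no change.

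In all, 8 of the 39 tested members, or 20.5%, had groups that did not overlap, against 15.5% of all genes tested. They were Hspa1a, Hspa1b, Hspa4, Dnaja2, Stip1 and Hspa5 on the higher side and Pdia4 and Trap1 on the lower side. 4 libraries against 4 cannot give a two-sided exact permutation p below 0.0286, the value each of these 8 genes had. By compartment that was 5 of 15 cytosolic, 0 of 7 CCT, 2 of 13 ER and 1 of 4 mitochondrial members.

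**Figure D4:**
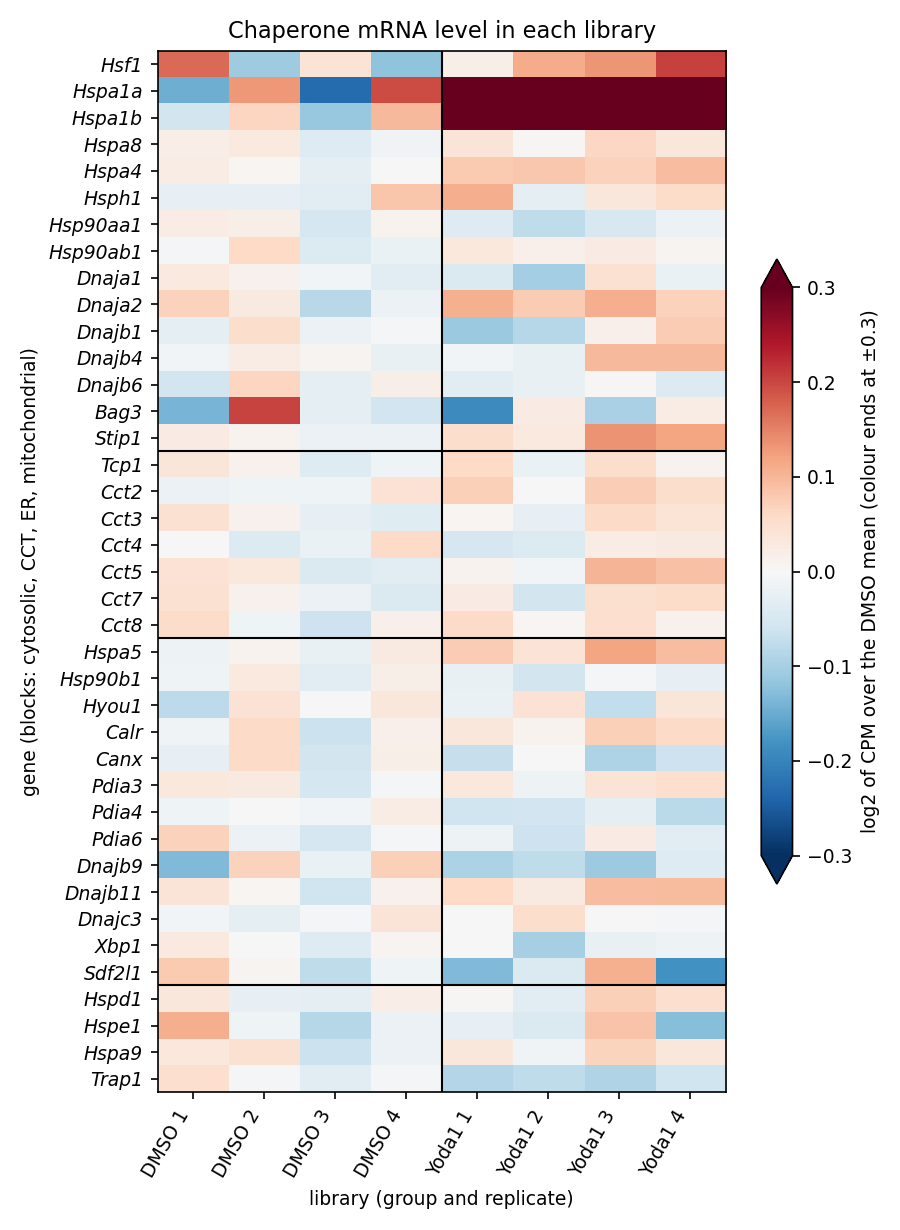
Level of each tested member (rows, in blocks by compartment) in each library (columns), as log2 of its CPM over the mean of the 4 DMSO libraries. The colour scale ends at ±0.3, and Hspa1a and Hspa1b exceed it in all 4 Yoda1 libraries. Elsewhere most cells are pale in both groups, with the strongest single colours in Hsf1 and Bag3, at 29.5 to 37.0 and 29.5 to 38.8 CPM over the 8 libraries.

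The small differences were bounded narrowly, and the members were abundant. The median member had more counts than 94.8% of the genes tested, its coefficient of variation between replicates was 2.72%, against 6.24% for all genes, and the 95% interval of its log2 fold change reached 0.07 to either side, against 0.14. With TMM factors, the interval lay within a 1.1-fold change in either direction for 26 of the 39 members, against 17.0% of all genes. For 37 members it lay within a 1.2-fold change, against 56.9% of all genes. Hspa1a and Hspa1b were outside the 1.2-fold band. The point estimates of 36 members, or 92.3%, lay within 0.1 of 0 on the log2 scale, against 56.2% of all genes.

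Abundant genes are in general measured more exactly, and the part of level in that comparison was not tested. Among the 1224 genes in the top 10% by level, at 170.0 CPM or more, edgeR called 218, or 17.8%, and 75.3% had a log2 fold change within 0.1 of 0. Of the 26 members in that set, none was called by edgeR, DESeq2 or limma-voom, 3 had an unadjusted p under 0.05, and all 26 lay within 0.1. This set was defined after the members' values were seen.

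Summed over all members, chaperone mRNA made up 1.79% to 1.86% of the counts in every library. The cytosolic members summed to 8788 ± 197 CPM with DMSO and 8942 ± 94.5 CPM with Yoda1 (SD, n = 4 each), the CCT members to 2446 ± 40.8 and 2495 ± 58.2 CPM, the ER members to 6035 ± 122 and 6080 ± 63.5 CPM, and the mitochondrial members to 944 ± 26.3 and 953 ± 24.5 CPM. The groups overlapped in every compartment. Hspa8 and Hsp90ab1 alone held 35.2% to 35.9% of all member counts.

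Per kilobase of annotated transcript, over all 8 libraries, Hspa8 (1504 CPM) and Hsp90ab1 (1163 CPM) led, followed by Calr (414 CPM), Hsp90b1 (383 CPM), Pdia3 and Hspa5 (294 CPM each) and Hsp90aa1 (278 CPM). Hspa1b, Hspa1a and Hspb1, at 1.52, 0.459 and 0.378 CPM, were the lowest, and their order is not read from these values, which pool both groups. Of these, Hspa8 shares 74.8% and Hsp90aa1 65.6% of its 50-base stretches with other annotated genes, mainly Gm15459 and Gm12346, so their absolute levels depend on how such reads were counted.

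Promoter sequence was compared with the mRNA values next. RefSeq windows of 300 bases, 250 before and 50 after the start, existed for 33 of the 40 members. The 32851 windows belonged to 27025 genes, and a member was counted where any of its windows matched. Shares of windows and counts of members are therefore unlike measures. GAANNTTC was found in 7.86% of all 32851 windows and in the windows of 7 of 12 cytosolic members (Bag3, Dnaja1, Dnajb6, Hspa1a, Hspa1b, Hspb1 and Hsph1), 1 of 6 CCT members (Cct2), 0 of 12 ER members and 2 of 3 mitochondrial members (Hspd1 and Hspe1). The facing-away pair TTCNNGAA, in 8.52% of all windows, was in those of Dnajb4, Dnajb6, Hsph1, Cct5, Hspd1 and Hspe1. The GAA and TTC units in alternation, 3 in a row with 2 bases between them, occurred in 0.603% of windows and in those of Dnajb6, Hsph1, Hspd1 and Hspe1, where both shorter motifs overlap.

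Of the 7 cytosolic members with GAANNTTC, Hspa1a and Hspa1b were the ones called. Bag3, Dnaja1, Dnajb6 and Hsph1 had log2 fold changes of -0.06, -0.03, -0.02 and 0.04, and Hspb1 was too low to test. An exact match to the ER stress element stood in 0.119% of all windows. It was found for 6 of the 12 ER members with a window, Calr, Canx, Dnajc3, Hsp90b1, Hspa5 and Pdia6, and for none of the other members. The 6 genes spanned log2 fold changes from -0.06 (Canx) to 0.08 (Hspa5). All motifs were searched on both strands, and a match says that the letters are present, not that a factor was bound in these cells.

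Outside the list, 108 further genes of the same pathways were examined, of which 105 were tested. 9 of them, or 8.57%, were called, against 10.9% of all genes, 4 higher and 5 lower. They were 4 of 31 cytosolic genes (1 higher, 3 lower), 5 of 40 ER genes (3 higher, 2 lower), 0 of 15 genes of the CCT list, which holds the subunit Cct6a beside prefoldin and tubulin cofactors, and 0 of 19 mitochondrial genes by edgeR.

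Among cytosolic genes, Hspa4l, an exchange factor related to Hspa4, had 51.7 ± 3.02 CPM with DMSO and 59.6 ± 5.08 CPM with Yoda1 (log2 fold change 0.21, edgeR adjusted p = 0.0150). Bag2, which inhibits the ubiquitin ligase CHIP, fell from 10.3 ± 0.633 to 7.93 ± 0.486 CPM (-0.38, edgeR adjusted p = 0.00943). Unc45a, a myosin chaperone that works with HSP90, fell from 110 ± 4.61 to 93.2 ± 2.64 CPM (-0.25, edgeR adjusted p = 0.000126). The other cytosolic call, Fkbp5, an HSP90-bound immunophilin, had a log2 fold change of -0.17 at an edgeR adjusted p of 0.00389.

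Among ER genes, Edem3, which trims mannose from misfolded glycoproteins, and Hspa13, an HSP70-like microsomal protein, were higher, with log2 fold changes of 0.18 and 0.13 at edgeR adjusted p of 0.0319 and 0.0460. Dnajc10 (ERdj5), a reductase that acts with BiP, fell from 76.8 ± 4.14 to 67.0 ± 3.09 CPM (-0.20, edgeR adjusted p = 0.00592). Herpud1, a part of ER-associated degradation and itself a known target of ER stress, fell from 93.4 ± 5.58 to 81.8 ± 3.03 CPM (-0.19, edgeR adjusted p = 0.00502). The remaining call was Ero1l, the oxidase that recharges disulfide isomerases, at 0.11 (edgeR adjusted p = 0.0305).

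The 5 lower calls were kept under every alternative run, while each of the 4 higher calls was lost under some. Hspa4l was lost without DMSO replicate 2, Yoda1 replicate 1 or Yoda1 replicate 2. Edem3 and Ero1l were both lost without DMSO replicate 2 or 3 or Yoda1 replicate 1, 2 or 4, and Hspa13 on leaving out any library except Yoda1 replicate 2. The replicate block ended all 4 calls, upper-quartile factors and library size only ended those of Hspa13, Ero1l and Edem3, DESeq2 those of Hspa13 and Edem3, and limma-voom that of Hspa13. Over all alternatives the log2 fold changes stayed above 0, from 0.15 to 0.25 for Hspa4l, 0.10 to 0.16 for Hspa13, 0.08 to 0.12 for Ero1l and 0.14 to 0.23 for Edem3, with adjusted p up to 0.0837, 0.155, 0.126 and 0.115. Fkbp5 and Ero1l lie outside the rule for named genes and were added after their values were seen.

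**Figure D5:**
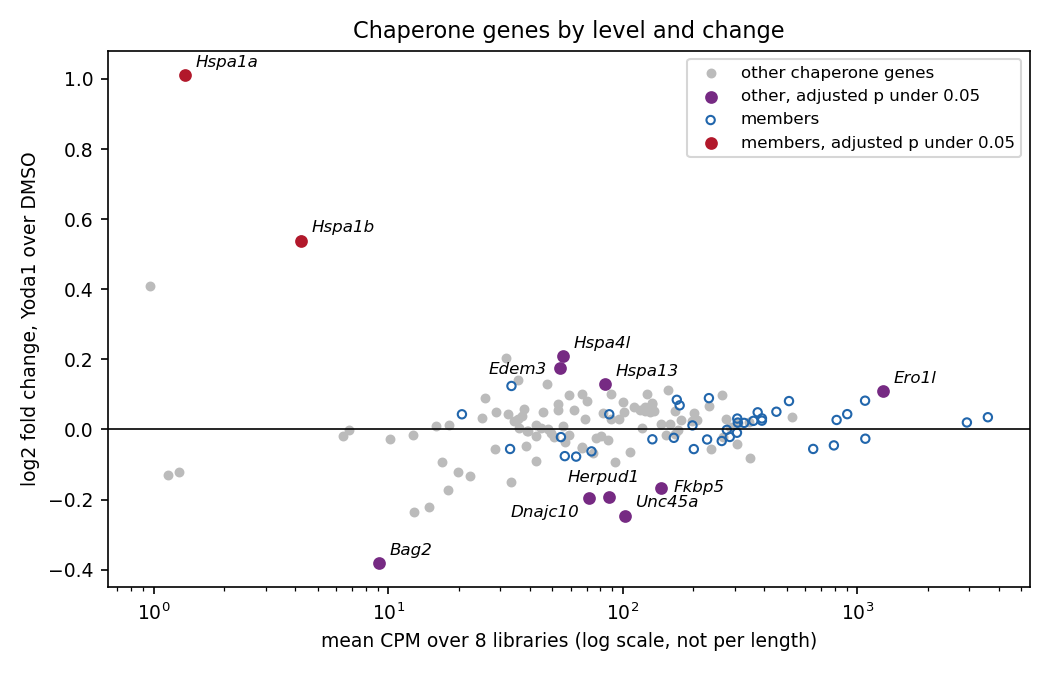
Log2 fold change (y axis, Yoda1 over DMSO) against the mean CPM over 8 libraries (x axis, log scale, not per length) for the 39 tested members (open blue, or red where called) and 105 tested further chaperone genes (grey, or purple where called). Hspa1a and Hspa1b combine low level with the highest changes, and the 9 further calls lie between -0.38 (Bag2) and 0.21 (Hspa4l).

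As a check of the cells, all 8 ILC2 markers were present, and their summed level was 12957 to 13449 CPM with DMSO and 14819 to 15166 CPM with Yoda1. 4 of the 8 rose, Il13, Il5, Il1rl1 and Thy1, with Il13 from 5427 to 6663 CPM. Of other cell types, the 3 NK cell markers summed to 46.7 to 49.5 CPM with DMSO and 50 to 56.0 CPM with Yoda1. Of these, Eomes was called higher (log2 fold change 0.21, edgeR adjusted p = 0.0111). Ncr1 and Klrb1c had lower means with Yoda1 (log2 fold changes -0.23 and -0.21) and were not called. T cell markers, of which 4 of 5 were found, summed to 60.4 to 66.1 and 64.9 to 75.4 CPM, mostly Cd3g, with no call. Epithelial and endothelial markers summed to 213 to 227 and 218 to 222 CPM, nearly all of it Pecam1, at a level above the 170.0 CPM that marks the top 10% of genes and with no call, with Cdh5 and Sftpc at or under 3 counts per library. The macrophage and dendritic cell list (Itgax its most abundant marker) and the mast cell and basophil list (Cpa3) stayed under 12 CPM in sum. In these lists only Itgax, Cd68, Cpa3 and Mcpt8 had enough counts to be tested, and none of them was called. 3 of the 4 B cell markers were at or under 3 counts, and no B cell marker was tested. The part of ILC2 and NK cell markers in the chaperone values was not tested.

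Libraries held 12438009 to 19534653 counts, so that 1 count was worth 0.0512 to 0.0804 CPM. The TMM factors lay between 1.003 and 1.010 for DMSO and between 0.988 and 0.997 for Yoda1. Scaling by library size alone moved the median log2 fold change of all genes from -0.01 to -0.03, a shift close in size to the medians of the CCT and ER members.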

How the data were processed

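Each of the 8 samples had 1 deposited table of whole-number read counts per gene. The submitters' processing notes name mm10 and TopHat for these counts, whereas the methods of the study name FastQC, FASTX Trimmer, BBMap and Cufflinks, so which aligner made the deposited counts is unsettled. Versions, annotation, strand setting and the treatment of reads with several matches are not given in the sources used here. The libraries were directional, poly(A)-selected and sequenced on an Illumina instrument.

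Counts were tested as deposited with edgeR 4.0.16 in R 4.3.3 (filterByExpr, TMM factors, robust quasi-likelihood test, Benjamini-Hochberg adjustment over all 12239 genes, threshold 0.05), first tested on simulated data. Fold changes are Yoda1 over DMSO, and intervals are at 95%. limma-voom (limma 3.58.1), DESeq2 1.42.0, other scalings and filters, a replicate block and the omission of each library were run as alternatives. p-values measure the spread between these samples, which may be technical, and intervals cover no error of read assignment. Depth ranged from 12438009 to 19534653 counts, and 0 value columns were left unused.

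Positions and shared 50-base stretches came from GENCODE M21 (GRCm38, the assembly of mm10), and promoters from RefSeq (GRCm38.p6), with 33 of 40 members matched. The members and gene lists were chosen with earlier results of these data known. All members were named, and of the further chaperone genes up to 2 higher and 2 lower calls per compartment, by log2 fold change.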

Additional observations from a re-analysis of the deposited data

Results flagged for a closer look

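In 3 of the 78 groups of 4 libraries formed by the 39 tested members, 1 library lay far from the others by Dixon's test, where chance gives about 3.9. Hsph1 stood at 91.3 CPM in DMSO replicate 4, against 84.7 CPM in the next library. Cct2 stood at 457 CPM in DMSO replicate 4, against 439 CPM. Dnajc3 stood at 204.6 CPM in Yoda1 replicate 2, against 197 CPM. None of these genes was called with or without that library.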

How the results depend on the processing

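Hspa1a and Hspa1b were called under all 15 alternatives run on each, at edgeR, DESeq2 or limma-voom adjusted p of 0.0065 to 0.0369 for Hspa1a and 0.00875 to 0.0371 for Hspa1b. Summed as 1 gene, a setting that merges the pair, they gave 1 member called higher. Without DMSO replicate 1, Dnaja2 was called as well. No member was called lower under any alternative. The further chaperone genes called higher numbered 4, but 2 with DESeq2, 1 with upper-quartile factors, 1 with library size only, 0 with the replicate block and 0 (without DMSO replicate 2) to 5 (without DMSO replicate 1) on leaving out a library, and the cause was not tested.

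The scaling shifts all genes together. Of all calls, 739 were higher and 592 lower, or 55.5% higher, but 958 were lower and 34.5% higher with upper-quartile factors, and 40.8% were higher with library size only. Calls lower ranged from 367 (without DMSO replicate 2) to 677 (without DMSO replicate 1), and were 374 without Yoda1 replicate 4. The median log2 fold change of all genes was -0.0053, and -0.036 with upper-quartile factors, which gave compartment medians of 0.0125 (cytosolic), -0.0055 (CCT) and -0.052 (ER), and log2 ratios of summed CPM of -0.0053, -0.0021 and -0.0198. With library size only the ER median was -0.043. Relative to the median of all genes, the cytosolic, CCT, ER and mitochondrial medians were 0.0485, 0.0303, -0.0162 and 0.0035, and 0.0485, 0.0305, -0.016 and 0.0036 with upper-quartile factors.

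Log2 fold changes near 0 changed sign in 13 members, none called in either fit. With upper-quartile factors these were Hsp90ab1 (-0.0107), Tcp1 (-0.0055), Cct3 (-0.011), Cct7 (-0.0119), Pdia3 (-0.0034), Dnajc3 (-0.0191) and Hspd1 (-0.006), and with library size only Hsp90ab1 (-0.0016), Cct3 (-0.0018), Cct7 (-0.0028) and Dnajc3 (-0.0101). Hyou1 came to 0.0009 with DESeq2 and 0.0007 with no filter on low counts. On leaving out a library, the ranges were -0.061 to 0.0038 for Dnajb1, -0.1007 to 0.0238 for Bag3, -0.0235 to 0.0096 for Cct4, -0.0267 to 0.0237 for Hyou1, -0.0384 to 0.0018 for Pdia6, -0.0029 to 0.0244 for Dnajc3 and -0.0652 to 0.0096 for Hspe1.

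Replicate numbers are shared by the groups, but same-numbered libraries did not deviate together (correlations of deviations 0.0482, 0.0711, -0.0277 and 0.000226, across genes), nor did every library correlate best with its own number. With the replicate block 966 genes were called in place of 1331, Hspa1a and Hspa1b among them. Counts limit Hspa1a, at 12 to 34 per library, and Hspb1, at 2 to 10.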
